A study of Mus musculus with 8 samples.

Results

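Toll-like receptors are membrane proteins that detect molecules of microbes or of damaged cells and pass the signal to adaptor proteins inside the cell. The genes described here were the receptors Tlr1, Tlr2, Tlr3, Tlr4, Tlr6, Tlr7, Tlr8 and Tlr9 and the adaptors Myd88 and Ticam1, the last of which encodes TRIF. They were chosen by symbol, as the rows of the count table whose identifiers belong to these symbols in the mouse gene annotation, and all 10 were found among 55487 rows. The RNA came from 8 tumors of Lewis lung carcinoma (LLC), 4 grown from wild-type LLC cells and 4 from LLC cells labelled Ago2 knock-out (ΔAgo2). LLC is a mouse lung cancer cell line. The cells were injected under the skin of female C57BL/6J mice, which the study bought at 6 to 8 weeks of age, and tumors were taken at day 12. The labels name no drug treatment for either group. The study made the knock-out with a lentiviral CRISPR guide and puromycin selection, sorted single cells and engrafted a single clone, so ΔAgo2 cannot be told apart from a trait of that clone. Stromal and immune cells in the tumors came from mice with intact Ago2. The question asked of these genes was whether receptor and adaptor transcripts differed between the genotypes, and whether receptors of the cell surface and of the endosome did so to the same extent.

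Tlr1, Tlr2, Tlr4 and Tlr6 act at the cell surface and recognise microbial lipids and lipoproteins, whereas Tlr3, Tlr7, Tlr8 and Tlr9 act in endosomes and recognise nucleic acids. Most of these receptors signal through MyD88 to NF-kB and inflammatory cytokines. Tlr3 signals through TRIF, which also serves Tlr4 and leads to type I interferon. In tumors the receptors are best known from macrophages and dendritic cells, and some are also made by cancer cells and fibroblasts.

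On GRCm38 (mm10), Tlr1 (ENSMUSG00000044827.10, 64924679 to 64933563) and Tlr6 (ENSMUSG00000051498.6, 64952031 to 64960097) lie side by side on chromosome 5. Tlr8 (ENSMUSG00000040522.5, 167242696 to 167264329) and Tlr7 (ENSMUSG00000044583.13, 167304929 to 167330558) lie side by side on chromosome X. Chromosome 9 holds Tlr9 (ENSMUSG00000045322.10, 106222598 to 106226883) and Myd88 (ENSMUSG00000032508.8, 119335934 to 119341411). The others are Tlr2 (ENSMUSG00000027995.10, chromosome 3, 83836272 to 83841767), Tlr4 (ENSMUSG00000039005.13, chromosome 4, 66827584 to 66930284), Tlr3 (ENSMUSG00000031639.12, chromosome 8, 45395665 to 45411080) and Ticam1 (ENSMUSG00000047123.8, chromosome 17, 56269319 to 56276786). All are annotated as protein-coding, and each has a single count per tumor.

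Ago2 is an Argonaute protein that holds microRNAs and small interfering RNAs, and its paralogs also bind microRNAs. MicroRNAs find transcripts by pairing of their seed, bases 2 to 8. The mature sequences of 3 microRNAs known from let-7 biology or from feedback on Toll-like receptor signaling are shown because their seeds were searched in the members' 3′ untranslated regions. They come from RefSeq on GRCm38.p6, are written from the 5′ end, and carry the seed in capitals.

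mmu-let-7a-5p: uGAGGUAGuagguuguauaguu

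mmu-miR-146a-5p: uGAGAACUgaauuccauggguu

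mmu-miR-155-5p: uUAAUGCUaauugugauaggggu

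A complete match to the let-7 seed was present in the 3′ untranslated regions of Tlr6 and Myd88, 2 of the 10 members, against 11.7% of the 13678 tested genes whose annotation gives such a region. No member held a match to the miR-146a or miR-155 seed, which were present in 13.2% and 9.39% of those genes. The members' regions ran from 58 bases in Tlr8, 148 in Tlr2 and 166 in Tlr1 to 1496 in Tlr3. A short region has less room for a match, and these shares take no account of length. The windows below are on GRCm38, strand minus, with the seed match in capitals. The Tlr6 window lies at chr5:64952234-64952263 and the Myd88 window at chr9:119336461-119336490. A match is a description of these letters and not a measured binding site.

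Tlr6: caagaaagaaggCTACCTCaactgtatgtg

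Myd88: ctacatgagagcCTACCTCccccatcccct

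Promoters, taken as 250 bases before to 50 bases after the start of transcription in RefSeq GRCm38.p6, were available for 8 of the 10 members in 10 windows, and Tlr4 and Tlr7 had no entry. An interferon regulatory factor motif (GAAANNGAAA, either strand) was found in 2 of the 10 windows, from Myd88 and Tlr6, and in 3.44% of 32851 promoters. An NF-kB motif was found in 2 of the 10 windows, from Tlr2 and Tlr3, and in 6.93% of all promoters. The Tlr2 promoter held 3 NF-kB matches, of which the first and second overlap. The STAT motif GAS (TTCNNNGAA) was present in 4 of the 10 windows, from Tlr1, Tlr6, Tlr8 and Myd88, and in 8.30% of all promoters. In Myd88 this match overlaps the interferon regulatory factor motif. Each window below shows an interferon or NF-kB motif in capitals. The windows lie on the minus strand at chr9:119340039-119340068, chr5:64959263-64959292, chr3:83841597-83841626 and chr8:45410572-45410601 in this order. In the Tlr6 window a further interferon regulatory factor match overlaps the one in capitals and is not marked.

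Myd88, interferon regulatory factor motif: gagcttctcgGAAAGCGAAAgaaggagggg

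Tlr6, interferon regulatory factor motif: tgactattctTTTCTCTTTCactttctgtt

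Tlr2, NF-kB motif: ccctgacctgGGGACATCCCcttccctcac

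Tlr3, NF-kB motif: agttgtttctGGGAGTTTCCtgcttttgag

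The libraries differed widely in depth, from 7903288 counts in wild-type tumor 4 to 268564145 in ΔAgo2 tumor 4. Values in CPM, counts scaled to a common library total, therefore rest on few reads in wild-type tumor 4, where Tlr8 had 4 counts, Tlr6 and Tlr7 had 11 each and Tlr4 had 24. A count of 0 would have allowed up to 0.430 CPM there, by counting error only. Ago2 itself measured 154 ± 28.9 CPM in wild-type and 240 ± 99.2 CPM in ΔAgo2 tumors (mean ± SD, n = 4 each), and its log2 fold change was 0.64 (SE 0.30, edgeR adjusted p = 0.205), so transcript level does not check the genotype label. Of the lung carcinoma markers, Krt8 (315 CPM in wild-type and 424 CPM in ΔAgo2 tumors) and Krt18 (479 and 516 CPM) were abundant, whereas Nkx2-1 was at 0 in all 8 libraries and Sftpc was near 0. Libraries also differed in how GC-rich and GC-poor genes compared, and these values are given with the results they touch.

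All 10 members were detected in all 8 tumors and all passed the filter on low counts. Per transcript length, in TPM (counts divided by gene length and scaled to a common total, as deposited), Myd88 was the highest member. It measured 97.7 ± 16.4 TPM in wild-type and 84.4 ± 4.86 TPM in ΔAgo2 tumors (SD, n = 4 each). Ticam1 followed with 27.7 ± 5.65 and 24.3 ± 4.44 TPM, and its values overlapped those of Myd88 in neither genotype. Thus each adaptor was above every receptor in mean level in both genotypes.

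Tlr2, the partner of Tlr1 and Tlr6 in lipoprotein recognition, was the highest receptor, at 16.1 ± 6.88 TPM in wild-type and 21.2 ± 5.07 TPM in ΔAgo2 tumors. It lay below Ticam1 with no overlap in wild-type tumors, whereas in ΔAgo2 tumors the ranges overlapped. In wild-type tumors Tlr9, Tlr4, Tlr1, Tlr7, Tlr3, Tlr8 and Tlr6 followed, from 5.81 ± 2.87 TPM for Tlr9 to 1.62 ± 0.595 TPM for Tlr6. In ΔAgo2 tumors the order was Tlr4, Tlr9, Tlr1, Tlr7, Tlr3, Tlr8 and Tlr6, from 13.4 ± 7.86 TPM for Tlr4 to 2.39 ± 0.408 TPM for Tlr6. From Tlr2 downward the ranges of neighbours in either order overlapped. Within tumors, Tlr2 was above the next receptor by mean, Tlr9 in wild-type and Tlr4 in ΔAgo2, in 4 of 4 tumors of each genotype. Tlr1 was above Tlr7 and Tlr3 above Tlr8 in 4 of 4 wild-type tumors. In ΔAgo2 tumors Tlr7 was above Tlr3 in 4 of 4. The other neighbouring receptors kept the order of their means in only 2 or 3 of 4 tumors.

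**Figure D1:**
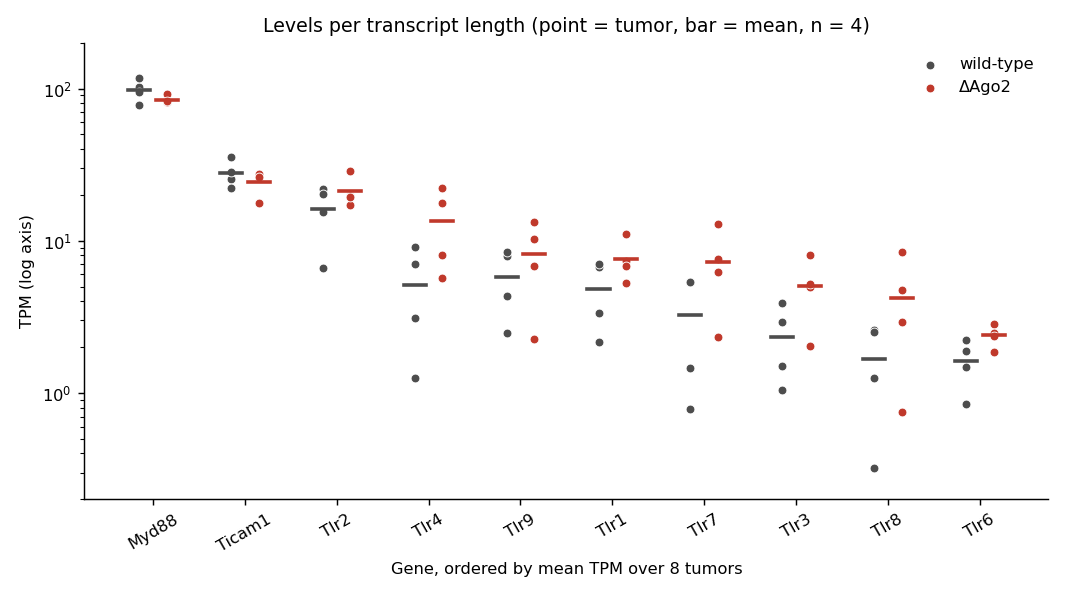
TPM of each member in every tumor on a log axis, ordered by the mean over 8 tumors; points are tumors and bars are means of 4. Myd88 lies between 77.6 and 117 TPM, above all receptor values, and Tlr8 reaches down to 0.320 TPM in a wild-type tumor.

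Partner genes were also compared within each tumor. The Tlr2 to Tlr6 ratio of TPM was 9.71 ± 1.65 in wild-type and 8.94 ± 1.70 in ΔAgo2 tumors (SD, n = 4 each). The Tlr2 to Tlr1 ratio was 3.46 ± 0.790 and 2.88 ± 0.620, and the Myd88 to Ticam1 ratio was 3.55 ± 0.334 and 3.57 ± 0.724. Each of these ratios overlapped between the genotypes. The Tlr7 to Tlr8 ratio, for neighbouring genes of the X chromosome, ran from 1.17 to 2.44 in wild-type and from 1.54 to 3.09 in ΔAgo2 tumors.

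None of the 10 members passed an adjusted p of 0.05 between ΔAgo2 and wild-type tumors in edgeR's quasi-likelihood test. Of 16061 genes tested, 3.49% were called, 1.36% higher and 2.12% lower in ΔAgo2 tumors. At an unadjusted p under 0.05 there were 2 members, Tlr4 and Tlr3, against 26.7% of all genes. DESeq2 called 0 members, beside 2292 of all 16061 genes tested. The limma voom fit with quality weights, which called 4476 genes in all, called 1 member, Myd88. All 8 receptors had a log2 fold change above 0 and both adaptors had one below 0 under each of the 3 scalings tried in edgeR, against 52.5% of all genes above 0. Tlr2 or Tlr9 went below 0 under 3 of the 24 alternative settings. No member had groups that did not overlap, against 16.4% of all genes (8.05% higher and 8.36% lower in ΔAgo2 tumors). In bulk tumors, fewer cells of a type and less RNA per cell cannot be told apart.

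Among the surface receptors Tlr4, the receptor for bacterial lipopolysaccharide, had the largest log2 fold change. The wild-type tumors in order measured 13.8, 6.05, 17.6 and 3.44 CPM, and ΔAgo2 tumors 1 to 4 measured 14.4, 33.7, 14.1 and 29.0 CPM. ΔAgo2 tumors 2 and 4 were above all wild-type tumors, whereas ΔAgo2 tumors 1 and 3 lay between wild-type tumors 1 and 3. The means were 10.2 ± 6.58 and 22.8 ± 10.1 CPM, and the log2 fold change was 1.13 (SE 0.48, adjusted p = 0.165). As a fold this is 2.19, with a 95% interval of 1.05 to 4.56. Over the 24 alternative settings the adjusted p ran from 0.0625 to 0.556.

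Tlr2 measured 23.1, 16.3, 21.4 and 9.89 CPM in wild-type and 27.2, 23.6, 16.4 and 17.1 CPM in ΔAgo2 tumors. The groups overlapped over most of their range, and the log2 fold change was 0.24 (SE 0.29, adjusted p = 0.604). Its sign turned under 2 settings, to -0.23 with voom quality weights and to -0.30 with pan-leukocyte markers as a covariate.

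Tlr1, which pairs with Tlr2 for triacylated lipoproteins, measured 7.89, 3.91, 8.16 and 3.58 CPM in wild-type and 8.04, 10.1, 7.85 and 6.71 CPM in ΔAgo2 tumors. Wild-type tumors 2 and 4 were low, and the other wild-type tumors lay among the ΔAgo2 values. Its log2 fold change was 0.45 (SE 0.32, adjusted p = 0.377). Tlr6, which pairs with Tlr2 for diacylated lipoproteins, measured 2.45, 1.95, 2.90 and 1.58 CPM in wild-type and 3.16, 2.90, 2.93 and 2.60 CPM in ΔAgo2 tumors. Only wild-type tumor 3 reached the ΔAgo2 range, and the log2 fold change was 0.36 (SE 0.30, adjusted p = 0.452). Tlr1 and Tlr6 share 259 stretches of 100 bases, 7.89% and 7.09% of those in each gene, and how reads in them were assigned was not stated, so each of these counts may hold reads of the other.

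**Figure D2:**
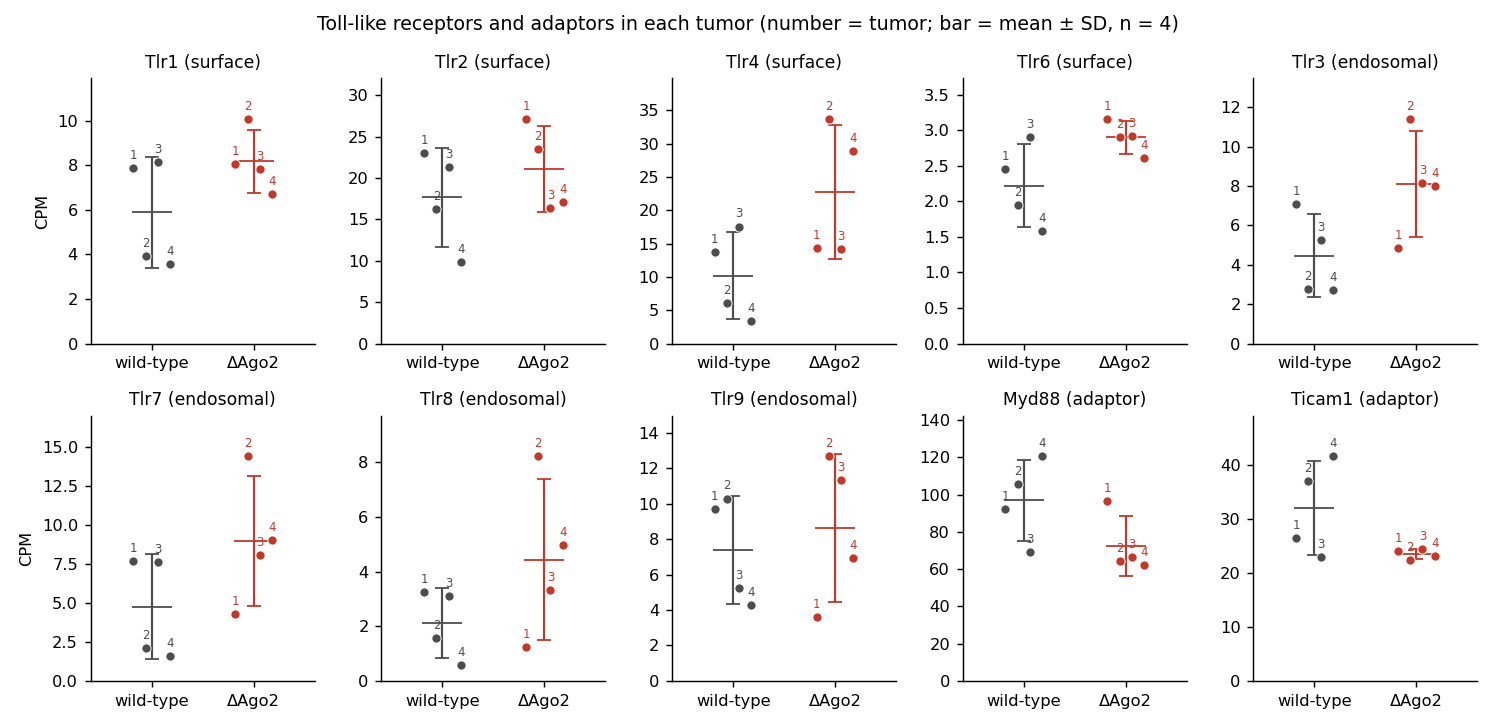
CPM of each member in the 4 wild-type (grey) and 4 ΔAgo2 (red) tumors; points carry the tumor number and bars show mean ± SD. The groups overlap in every panel; wild-type tumors 2 and 4 are low for Tlr4 and Tlr7, and ΔAgo2 tumor 1 is high for Myd88 at 96.7 CPM.

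Among the endosomal receptors Tlr3, which binds double-stranded RNA, measured 7.06, 2.77, 5.26 and 2.72 CPM in wild-type and 4.84, 11.4, 8.18 and 8.01 CPM in ΔAgo2 tumors. ΔAgo2 tumors 2, 3 and 4 were above every wild-type tumor, whereas ΔAgo2 tumor 1 lay below wild-type tumors 1 and 3. The log2 fold change was 0.84 (SE 0.38, unadjusted p = 0.0495, adjusted p = 0.187), a fold of 1.79. An antisense gene, Gm45542, overlaps Tlr3 and had at most 1 count in any library.

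Tlr7, which binds single-stranded RNA, measured 7.68, 2.10, 7.63 and 1.58 CPM in wild-type and 4.31, 14.4, 8.09 and 9.06 CPM in ΔAgo2 tumors. The same ΔAgo2 tumors as for Tlr3 were above all wild-type tumors, and ΔAgo2 tumor 1 was again lower than wild-type tumors 1 and 3. Its log2 fold change was 0.88 (SE 0.53, adjusted p = 0.302). Tlr8, its neighbour on the X chromosome, measured 3.26, 1.57, 3.11 and 0.573 CPM in wild-type and 1.23, 8.23, 3.34 and 4.98 CPM in ΔAgo2 tumors. It had the widest range of any member in both genotypes, 5.69-fold from the lowest to the highest wild-type tumor and 6.68-fold among ΔAgo2 tumors. Its log2 fold change was 1.00 (SE 0.59, adjusted p = 0.292).

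Tlr9, which binds DNA rich in unmethylated CpG, departed in CPM from the other endosomal receptors in its pattern over tumors. Its values corrected for GC content are given below. It measured 9.71, 10.3, 5.26 and 4.30 CPM in wild-type and 3.59, 12.7, 11.3 and 6.95 CPM in ΔAgo2 tumors. The lowest value of all belonged to ΔAgo2 tumor 1 and the highest to ΔAgo2 tumor 2, with the wild-type tumors between them. Its log2 fold change was 0.21 (SE 0.42, adjusted p = 0.769), and leaving out ΔAgo2 tumor 2 turned it to -0.056.

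Myd88, the adaptor shared by most receptors, measured 92.2, 106, 69.4 and 121 CPM in wild-type and 96.7, 64.5, 66.5 and 62.3 CPM in ΔAgo2 tumors. ΔAgo2 tumors 2, 3 and 4 lay below every wild-type tumor, whereas ΔAgo2 tumor 1 lay among them. The log2 fold change was -0.42 (SE 0.23, adjusted p = 0.259), whereas leaving out ΔAgo2 tumor 1 gave -0.60 (adjusted p = 0.0799). The voom fit called it lower at -0.46 (adjusted p = 0.0386), among 4476 of all 16061 genes called. This fit gave ΔAgo2 tumor 1 the lowest weight of all libraries, 0.233, and ΔAgo2 tumor 4 the highest, 5.27. Wild-type tumors 2 and 4, the highest for Myd88, had weights of 0.438 and 0.384. Over the 24 settings the adjusted p of Myd88 ran from 0.0386 to 0.548.

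Acaa1a lies on the opposite strand and shares 125 stretches of 100 bases with Myd88, 4.69% of those in Myd88. It measured 84.3 ± 19.6 CPM in wild-type and 65.8 ± 23.1 CPM in ΔAgo2 tumors, with a log2 fold change of -0.36 (adjusted p = 0.394). The kit keeps strand, but whether counting used it was not stated, so the shared reads could have been counted for either gene.

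Ticam1 measured 26.5, 37.2, 23.0 and 41.7 CPM in wild-type and 24.2, 22.4, 24.5 and 23.1 CPM in ΔAgo2 tumors. The ΔAgo2 tumors were close to each other, with an SD of 0.955 CPM, and lay around wild-type tumor 3. Wild-type tumors 2 and 4 were the highest. The log2 fold change was -0.44 (SE 0.23, adjusted p = 0.229).

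The median log2 fold change was 0.40 over the 4 surface receptors and 0.86 over the 4 endosomal receptors, beside 0.039 over all genes tested. The mean log2 CPM of the surface receptors was 2.69 ± 0.65 in wild-type and 3.33 ± 0.22 in ΔAgo2 tumors. That of the endosomal receptors was 1.89 ± 0.80 and 2.71 ± 0.78. Surface receptors therefore exceeded endosomal receptors in mean log2 CPM by 0.79 ± 0.25 in wild-type and 0.63 ± 0.71 in ΔAgo2 tumors (SD, n = 4 each). By tumor this difference was 0.46, 0.75, 0.94 and 1.03 for the wild-type genotype. It was 1.68, 0.11, 0.27 and 0.45 for ΔAgo2 tumors 1 to 4.

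The change between the genotypes in this difference was -0.17, smaller than the spread within ΔAgo2 tumors. ΔAgo2 tumor 1 was above and the other ΔAgo2 tumors were below every wild-type tumor. Without ΔAgo2 tumor 1 the change was -0.52, and without ΔAgo2 tumor 2 it was 0.0058. The endosomal share of the summed receptor TPM was 31.9 ± 3.47% in wild-type and 33.4 ± 10.4% in ΔAgo2 tumors, with 18.5% in ΔAgo2 tumor 1.

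**Figure D3:**
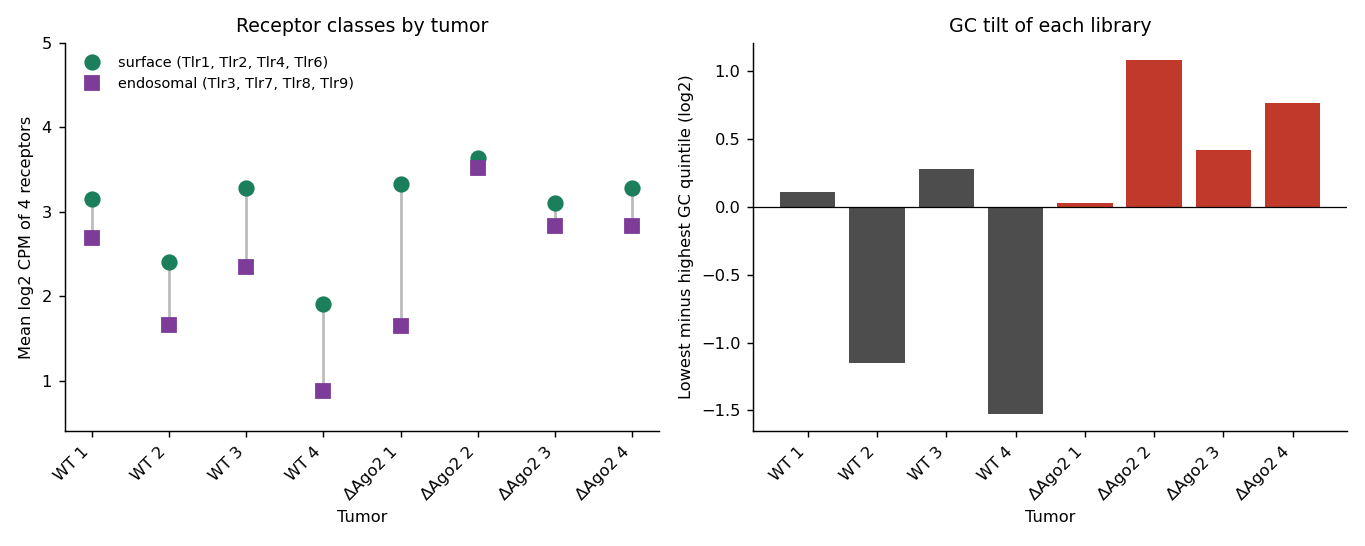
Left, mean log2 CPM of the 4 surface and the 4 endosomal receptors in each tumor, joined by a line; right, GC tilt, the mean deviation of log2 CPM in the lowest GC quintile of genes minus that in the highest. Surface and endosomal levels are furthest apart in ΔAgo2 tumor 1, and wild-type tumors 2 and 4 have both the lowest surface levels and tilts of -1.15 and -1.52.

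GC content moved with these values. The GC content of the longest transcript was 39.4% for Tlr4, 40.0% for Tlr3, 40.1% for Tlr8 and 41.0% for Tlr7, all in the lowest GC quintile of tested genes, whose median log2 fold change was 0.59. Tlr1 and Tlr6, at 45.1% and 45.6%, were in the second quintile, with a median of 0.28, and Tlr2, at 49.3%, was in the third, with 0.067. Myd88, at 53.5%, was in the fourth quintile, with -0.21. Tlr9 and Ticam1, at 56.2% and 56.4%, were in the highest quintile, with -0.52. The sign of the log2 fold change of each member other than Tlr9 was that of its quintile.

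GC tilt, the level of the lowest quintile relative to the highest within a library, was on the log2 scale 0.11, -1.15, 0.28 and -1.52 for the wild-type tumors in order. It was 0.028, 1.08, 0.42 and 0.76 in ΔAgo2 tumors 1 to 4. Wild-type tumors 2 and 4, in which Tlr1, Tlr2, Tlr3, Tlr4, Tlr6 and Tlr7 were lowest of all tumors and Myd88 and Ticam1 highest, had the lowest tilts, and ΔAgo2 tumor 2 had the highest.

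With the GC trend of each library removed, the receptors' median log2 fold change was 0.22, beside -0.0019 over all genes. Under this correction 0 members were called, beside 606 of all 16061 genes tested. Tlr4 then measured 0.45, Tlr7 0.31, Tlr8 0.28, Tlr3 0.16, Tlr1 0.16, Tlr2 0.16 and Tlr6 0.075. Tlr9 had the largest corrected log2 fold change, 0.58 (adjusted p = 0.490). In corrected log2 CPM Tlr9 was lowest in wild-type tumor 4 at 1.61, next in ΔAgo2 tumor 1 at 1.86 and highest in ΔAgo2 tumor 2 at 3.95. The same tumors held these places for Tlr8, at 0.096, 0.31 and 2.27. Tlr7 was also lowest in wild-type tumor 4 and highest in ΔAgo2 tumor 2, whereas Tlr3 was not. Myd88 was at -0.22 and Ticam1 at -0.023. Surface minus endosomal level changed by -0.12 under the correction.

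**Figure D4:**
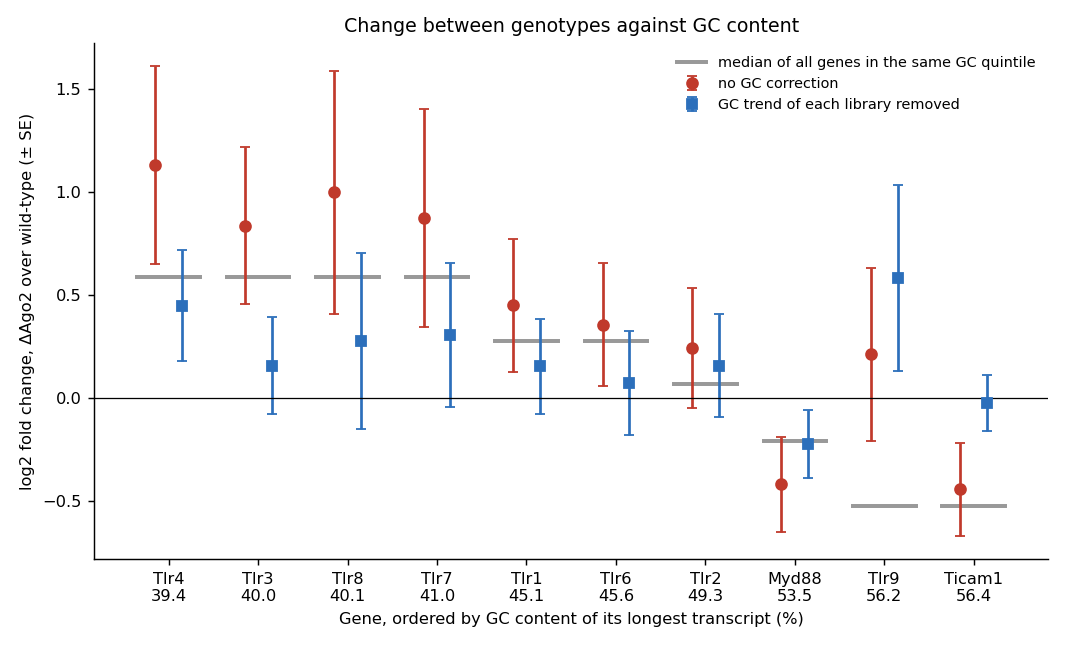
Log2 fold change (± SE) of each member without (red circles) and with (blue squares) removal of each library's GC trend, ordered by GC content; grey bars give the median of all genes in the same GC quintile. Tlr4 moves from 1.13 to 0.45 and Ticam1 from -0.44 to -0.023, while Tlr9 moves from 0.21 to 0.58.

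Markers of immune cells that could carry these receptors were read beside them, and their part in the members' values was not tested beyond the covariate settings. None of 10 macrophage and monocyte markers was called, 5 had a log2 fold change above 0 and 5 below, and their median was -0.018. Their summed level ran from 1652 to 1882 CPM in wild-type and from 1173 to 2896 CPM in ΔAgo2 tumors, with the highest sum in ΔAgo2 tumor 1. With these markers as a covariate the receptors' median log2 fold change was 0.63. No member was called then, beside 281 of all 16061 genes tested. None of 6 pan-leukocyte markers was called. They summed to 556 to 1083 CPM in wild-type and 548 to 940 CPM in ΔAgo2 tumors, and with them as a covariate the receptors' median was 0.45.

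Tlr7 and Tlr9 are also known from plasmacytoid dendritic cells and B cells. The plasmacytoid marker Siglech was between 0.389 and 0.993 CPM in all 8 tumors, and 0 of 6 markers of that list were called. The list summed to 210 to 290 CPM in wild-type and 306 to 479 CPM in ΔAgo2 tumors, with no overlap. Most of this sum came from Bst2 and Tcf4, which are not particular to that cell. Of the B cell markers Ms4a1 was at or under 0.105 CPM in every library. Cd79a ran from 0.140 to 0.573 CPM, Cd79b from 0.430 to 2.79 CPM and Pax5 from 0.717 to 2.24 CPM, with overlap between the genotypes, and none was called. 
Markers of the other cells of the tumor were also read, and their part in the members' values was not tested. The 6 fibroblast markers summed to 4841 to 7167 CPM in wild-type and 2200 to 4576 CPM in ΔAgo2 tumors, with no overlap. Of these, 4 had a log2 fold change below 0 and 4 an unadjusted p under 0.05, against 26.7% of all genes at that p. The median was -0.67 and none was called by edgeR. The 5 skeletal muscle markers summed to 196, 283, 2965 and 413 CPM in the wild-type and to 162, 33.4, 153 and 125 CPM in the ΔAgo2 tumors, again with no overlap. Each had a log2 fold change below 0 and an unadjusted p under 0.05, the median was -3.01 and none was called. Taken singly, 2 of 6 fibroblast and 1 of 5 muscle markers did not overlap between the groups, against 16.4% of all genes. These marker sums and log2 fold changes are not corrected for GC content.

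Skin keratinocyte markers all had a log2 fold change above 0, and 1 of 5, Krt10, was called higher (2.06, adjusted p = 0.046). Their sum ran from 10.2 to 556 CPM in wild-type, lowest in tumor 3, and from 424 to 825 CPM in ΔAgo2 tumors. The carcinoma markers tested, 4 of 6, were above 0 with a median of 0.84, and none was called. The list summed to 497 to 1249 CPM in wild-type and 714 to 1240 CPM in ΔAgo2 tumors. No marker of conventional dendritic cells, neutrophils, T cells, NK cells or endothelium was called. The median log2 fold change was 0.80 for NK cells, with 4 of 5 above 0, and 0.14 for T cells, with 6 of 6 above 0. It was -0.37 for conventional dendritic cells, with 2 of 8 above 0, 0.25 for neutrophils and -0.025 for endothelium.

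For each member the genes with the most similar pattern were found by the correlation of log2 CPM over 8 libraries after the mean of each genotype was taken away. These points share library depth and GC tilt, and the values are a description over 12253 genes. For Myd88 they were Hcst (r = 0.995), the adaptor of the lymphocyte receptor NKG2D, and Zap70 (0.989), a kinase of the T cell receptor. For Tlr2 they were Rnase6 (0.958), a secreted ribonuclease, and Cisd2 (0.953). For Tlr1 they were Trmt10a (0.989) and Rab7b (0.988), the latter a small GTPase of late endosomes.

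Tlr4 was followed by Lrrcc1 (0.997) and Agps (0.995), and Tlr7 by Glmn (0.998) and Mis12 (0.996). Tlr8 was nearest to Cdc40 (0.997) and Cwf19l2 (0.997), Tlr3 to Shld2 (0.980) and Gpr137b-ps (0.980), and Tlr6 to Prim2 (0.985) and Riox2 (0.977). Of the genes nearest to the 4 low-GC members, 6 had a GC content of at most 43.3%, the exceptions being Mis12 at 45.6% and Gpr137b-ps at 49.3%. Tlr9 was nearest to Ascc2 (0.985) and to Csf2rb (0.983), the common beta chain of cytokine receptors. Ticam1 was nearest to Traf7 (0.998) and Tkfc (0.995). Only Gpr137b-ps of these genes was itself called between the genotypes (log2 fold change 1.26, adjusted p = 0.0128).

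The wider pathway was read from 9 lists of 69 genes, of which 67 were tested and 2 were called, 1 higher and 1 lower. Of all 16061 genes tested, 3.49% were called, so this count was near the share over all genes. The median log2 fold change of the 67 was 0.17, with 42 above 0 and 25 below. Over all genes the median was 0.039, with 52.5% above 0. Groups did not overlap for 8 of the 67, against 16.4% of all genes. Tlr11 and Ifnb1 were under the filter on low counts.

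The called gene that fell was Sarm1, a TIR-domain protein known as a brake on TRIF signaling and as an enzyme that degrades NAD in axons. It measured 4.09, 6.67, 3.66 and 8.03 CPM in wild-type and 0.677, 0.886, 0.776 and 0.644 CPM in ΔAgo2 tumors. Every ΔAgo2 tumor was below every wild-type tumor. The log2 fold change was -2.89 (SE 0.36, adjusted p = 0.00298), or 0.135 of the wild-type level with a 95% interval of 0.0778 to 0.233. It was called in 22 of 24 alternatives, not with the pan-leukocyte covariate (adjusted p = 0.185) or on log2(TPM + 1) without a filter (0.0713). With GC corrected it was -2.37. The other TIR adaptors were Tirap, Ticam2 and Pik3ap1, whose log2 fold changes ran from 0.095 to 0.40 and were not called.

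The called gene that rose was Rsad2, an antiviral enzyme induced by interferon, with 26.8, 9.34, 13.0 and 8.46 CPM in wild-type and 51.7, 76.4, 61.5 and 45.6 CPM in ΔAgo2 tumors. All ΔAgo2 tumors were above all wild-type tumors, and the log2 fold change was 2.01 (SE 0.36, adjusted p = 0.0177). It belongs to a signature that the study chose on these tumors, as do Cxcl10 and Ifit1, so it is not independent evidence of direction. Rsad2 was called in 17 of 24 alternatives, and leaving out wild-type tumor 2, ΔAgo2 tumor 2 or ΔAgo2 tumor 3 ended the call, with adjusted p of 0.0687, 0.0573 and 0.0523. The other interferon targets tested ran from -0.48 for Ccl5 to 1.61 for Ifit1 and were not called.

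Genes that serve the receptors directly were not called. Among co-receptors and ligand carriers, Ly86, the partner of Cd180, was highest at 0.95 (adjusted p = 0.212) and Lbp, which carries lipopolysaccharide, was lowest at -0.64 (adjusted p = 0.412). Cd14 and Ly96, which hand lipopolysaccharide to Tlr4, had log2 fold changes of -0.056 and 0.46. Ly96 showed low values in wild-type tumors 2 and 4, 1.19 and 0.860 CPM from 25 and 6 counts. In the other 6 tumors it lay between 3.57 and 4.48 CPM. Tlr4 was also lowest in wild-type tumors 2 and 4, but so were Tlr1, Tlr2, Tlr3, Tlr6 and Tlr7. The GC tilts of these tumors were -1.15 and -1.52.

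Of the chaperones and trafficking proteins, Hsp90b1, the chaperone gp96 that folds most of these receptors, was highest at 0.46 (adjusted p = 0.232) and its co-chaperone Cnpy3 lowest at -0.40 (0.245). Unc93b1, which carries endosomal receptors out of the endoplasmic reticulum, was at -0.19 (0.692). Among endosomal proteases Ctss was highest at 0.87 (0.140) and Ctsl lowest at -0.18 (0.627). The remaining Toll-like receptors lay between -0.20 for the flagellin receptor Tlr5 and 0.72 for Tlr13, a receptor for bacterial ribosomal RNA, and none was called.

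Downstream, 15 of 20 kinases, ubiquitin ligases and transcription factors had a log2 fold change above 0, against 52.5% of all genes. This count takes no account of GC content, whose part in it was not tested. None of the 20 genes was called. They ran from -0.53 for Irf3 to 1.67 for Tab3, a subunit of the TAK1 complex (adjusted p = 0.0852). Of the negative regulators, 4 of 8 were above 0, from -0.65 for Sigirr to 0.61 for the deubiquitinase Cyld. Of the NF-kB dependent targets, 4 of 10 were above 0, from -0.75 for the chemokine Cxcl2 to 0.44 for Ccl4, and none of either list was called. DESeq2 called 9 of the 67 pathway genes and voom 11. Of all 16061 genes tested, DESeq2 called 2292 and voom 4476. Sarm1, Irak2, Traf6, Tab3, Chuk, Tollip and Rsad2 were called by both.

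**Figure D5:**
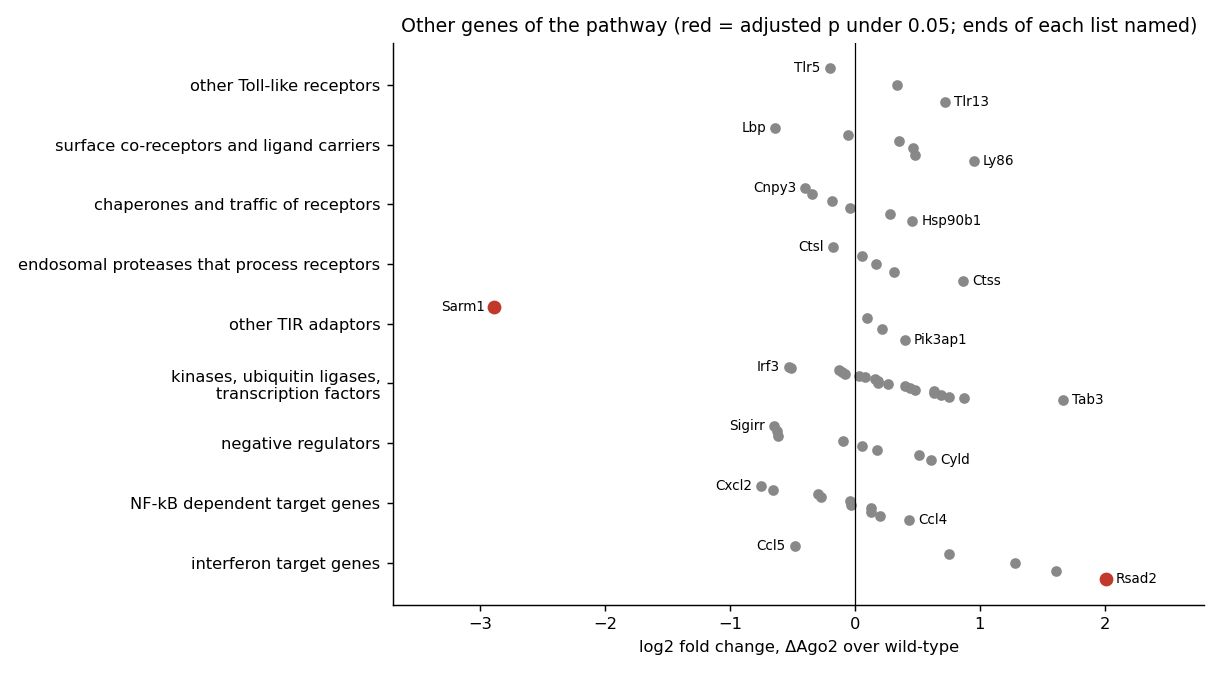
Log2 fold change of the 67 tested pathway genes by list, with the highest and lowest of each list named and the 2 called genes in red. Sarm1 at -2.89 and Rsad2 at 2.01 stand at the ends, and the other genes lie between -0.75 and 1.67.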

How the data were processed

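Tumor libraries were made by the authors with a stranded mRNA kit and sequenced in pairs on a NovaSeq. Per the labels, the submitters' processing notes name STAR and mm10. The study's methods, written for cultured cells, name featureCounts, and the annotation, strand setting and treatment of multiply mapped reads were not given in the sources used here. The deposited counts are whole numbers with no normalization, and the deposited TPM values were scaled by gene length and library by the authors. Groups came from the sample titles. The labels say only that samples are biological replicates and the series gives 4 mice per group, and all carry the same batch label. Replicates of a genotype differed by more than sampling noise (chi-square per degree of freedom of at least 39.1).

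Identifiers were matched to GENCODE M21 on GRCm38, 99.3% of 55487 with their version and 300 more without it. Counts were filtered with filterByExpr, scaled by TMM and tested with the quasi-likelihood test of edgeR 4.0.16 in R 4.3.3, with Benjamini-Hochberg adjustment over 16061 genes at 0.05. CPM use TMM-scaled totals, and log2 CPM a prior count of 2. Each library's trend on GC content or length was estimated from genes averaging 50 counts or more. DESeq2 1.42.0, limma 3.58.1 and other scalings, filters, covariates and left-out libraries gave 24 alternatives. Scripts were tested on simulated data. Annotation and sequences were read in Python 3.11.15. The genes named were all members, called pathway genes, the highest and lowest log2 fold change of each pathway list, and for each member the 2 genes of most similar pattern with a mean of at least 1 CPM. Further pathway and marker genes were named after their values were seen. The members, lists and tests were chosen with earlier results of these data known. Other experiments of the study were not analysed here.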

Additional observations from a re-analysis of the deposited data

Results flagged for a closer look

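A test for a sample far from the others of its group was applied to 54 groups of 4 tumors, of which chance alone would single out 2.7, and 2 were found. In ΔAgo2 tumor 1, Myd88 stood at 96.7 CPM, while the remaining tumors of that genotype had 62.3 to 66.5 CPM. The mean log2 CPM of the skeletal muscle markers was 2.26 in ΔAgo2 tumor 2 against 4.26 to 4.67 in the other ΔAgo2 tumors.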

How the results depend on the processing

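Over 24 alternatives, 235 of 239 values of the members' log2 fold change kept their sign. It turned for Tlr2 with voom quality weights (-0.23) and with the pan-leukocyte covariate (-0.30), and for Tlr9 with voom (-0.0057) and without ΔAgo2 tumor 2 (-0.056), its range over left-out tumors being -0.056 to 0.45. Tlr8 was under the filter of 10 counts in every library. No member was called in any alternative other than voom, which called 1, lower (Myd88, adjusted p = 0.0386), and leaving out each tumor in turn gave 0 throughout. The surface minus endosomal change ran from -0.52 to 0.0058 over left-out tumors. Pathway genes called numbered 9 with DESeq2, 11 with voom, 5 with no count filter, 4 with the GC correction, 1 on log2(TPM + 0.1), 0 on log2(TPM + 1) without a filter and 0 with the pan-leukocyte covariate, and 1 to 5 over left-out tumors, with 5 without ΔAgo2 tumor 1 and 1 without wild-type tumor 2, ΔAgo2 tumor 2 or ΔAgo2 tumor 3. The cause was not tested. Same-numbered tumors correlated between -0.29 and 0.103 in their deviations from the group means, and 0 of 4 pairs correlated best with their own number, so the numbers were not taken as pairs. With a replicate block 1 pathway gene and 70 genes in all were called, and with the block and the GC correction 6. All-gene calls were 2292 with DESeq2, 4476 with voom, 983 with no count filter, 1166 with the length correction, 281 with the macrophage covariate and 0 with the pan-leukocyte covariate. They were 153 on log2(TPM + 1), 107 on log2(TPM + 0.1), 77 on log2(TPM + 1) without a filter and 308 with the block and GC correction. Over left-out tumors they ran from 90 without ΔAgo2 tumor 4 to 1759 without ΔAgo2 tumor 1. On log2(TPM + 0.1) the median log2 fold change was 0.28 over all genes and 0.93 over the receptors. The shallowest library limits the low receptors, with 4 to 30 counts for those other than Tlr2.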
